A study of Mus musculus with 8 samples.

Results

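The livers described here came from the untreated MCD-fed mice, that is the 4 arrays titled as MCD liver with no treatment, out of 8 arrays in all. MCD stands for a methionine- and choline-deficient diet, a common way to give mice steatohepatitis that also makes them lose weight. The mice were male C57BL/6N animals, 8 weeks old at the start, fed the diet for 15 weeks with 0 mg/day metformin, and each array held total RNA of 1 liver. How these animals were picked from the group was not given in the sources used here, and the other 4 arrays, from mice that also drank metformin, were not compared. Every array held 3136 spots, of which 1096 were probes for mouse miRNAs, and all 1096 were used. The value given for a probe is its net signal, the median pixel intensity of its spot minus the mean of the 1818 blank spots of the same array, in scanner units. A share is that net signal as a percent of the summed net signal of all mouse probes on the array.

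miRNAs are short RNAs that guide Argonaute proteins to messenger RNAs, mostly through the seed, bases 2 to 8 of the miRNA. A hairpin precursor gives a pair of arms: the guide arm is usually loaded, and the other arm, marked * in the names of this array, is usually degraded. In the liver, miR-122 of hepatocytes is the classical abundant miRNA, with known roles in lipid and cholesterol metabolism. Probes differ in how well they bind their target, so the order of signals is an order of probe brightness and not of molecules. Differences between probes are given as descriptions with the spread over the 4 livers, and no p-value was computed for them.

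The sequences that the results turn on come first. The brightest probes, for miR-3968 and miR-5100, hold the same run of 9 bases, printed in capitals:
miR-3968: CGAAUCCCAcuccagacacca
miR-5100: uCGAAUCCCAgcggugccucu
The run CGAAUCCCA started at base 1 of miR-3968 and at base 2 of miR-5100, so the seeds of these miRNAs were shifted by 1 base and were not the same. The run was chosen as the longest that these 2 sequences share, so both hold it by choice. It was in 2 of the 589 probes whose mature sequence was known (0.340%) and in 2 of 1679 mature mouse miRNAs of RefSeq (0.119%). These hits are the 2 miRNAs themselves, so the percentages are no test of a shared feature. The reverse complement of the run was in 0. Runs of this kind are also part of the T arm of many transfer RNAs. The miR-3968 sequence lies at chr11:115447969-115447989 on the minus strand within the span of Trim80, and miR-5100 at chr11:60728698-60728718 on the plus strand within Mief2 (RefSeq, GRCm38.p6).

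The members of the let-7 family are shown because they differ by few bases and yet differed in signal. The seed is in capitals:
let-7a: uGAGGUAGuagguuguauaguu
let-7f: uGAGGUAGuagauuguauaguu
let-7d: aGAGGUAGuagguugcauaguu
let-7c: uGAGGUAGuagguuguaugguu
let-7b: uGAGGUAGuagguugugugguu
Positions are counted from 1 at the 5′ end, with the let-7a base first. let-7f differed from let-7a by G12A, let-7c by A19G, let-7d by U1A and U16C, and let-7b by A17G and A19G. let-7a, let-7f and let-7d lie together on chromosome 13, at chr13:48538239-48538260, chr13:48537889-48537910 and chr13:48536078-48536099 on the minus strand, and let-7f has another copy on the X chromosome within Huwe1.

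The miR-29 family, known to repress collagen messages, and a few bright single miRNAs are printed with the seed in capitals as well:
miR-29a: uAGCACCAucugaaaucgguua
miR-29b: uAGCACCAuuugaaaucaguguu
miR-29c: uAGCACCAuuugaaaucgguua
miR-21: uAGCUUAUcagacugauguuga
miR-126-3p: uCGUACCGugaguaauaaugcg
miR-690: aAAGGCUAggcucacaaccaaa
miR-5126: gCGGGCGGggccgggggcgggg
The 3 miR-29 members shared the seed. miR-21 lies at chr11:86584120-86584141 on the minus strand within Vmp1, miR-126-3p at chr2:26591402-26591423 on the plus strand within Egfl7, a gene of endothelial cells, miR-690 at chr16:28599940-28599961 on the minus strand within Fgf12, and miR-5126 at chr1:84695890-84695911 on the plus strand within Dner. Every base of miR-5126 was G or C (100%).

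Of the 1096 mouse probes, 602 (54.9%) exceeded the mean + 2 SD of the blank spots on all 4 arrays and were called detected. Only 169 (15.4%) exceeded the mean + 2 SD of the 24 negative control spots on all 4 arrays, and these are called bright below. The blank limit was lenient, since 24 to 31 of the 39 probes for viral miRNAs also passed it on each array, and on each array the mean of the negative control spots lay 35.5 to 45.1 above the blank spots, close to the median mouse probe at 38.8 to 45.1. The summed net signal ranged between 260389 and 352431 and was highest in replicate 3. No mouse probe was saturated (0 probes), and the 8 spots of each spike-in control varied with a coefficient of variation of 1.84% to 23.8%, more on the arrays of replicates 1 and 2. The order of dim probes was only loosely shared between livers: over the 6 pairs of livers Spearman's rho across all probes was 0.58 to 0.67, against 0.31 to 0.45 across probes that were not bright. Pearson's r of the log2 signal across the 169 bright probes was 0.96 to 0.98. These are descriptions across probes, which share an array and its background.

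The signal was concentrated in few probes. The 5 brightest probes carried 41.2% ± 2.66 of the signal, the 10 brightest 48.7% ± 2.44 and the 25 brightest 63.9% ± 1.84 (SD, n = 4). The number of probes that summed to 50% of the signal was 12, 14, 11 and 9 in replicates 1 to 4. Its mean of 11.5 depended on the background, and was 26 with normexp and 6.75 when only bright probes were summed. The 927 probes that were not bright together held 12.9% ± 1.52 of the signal.

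**Figure D1:**
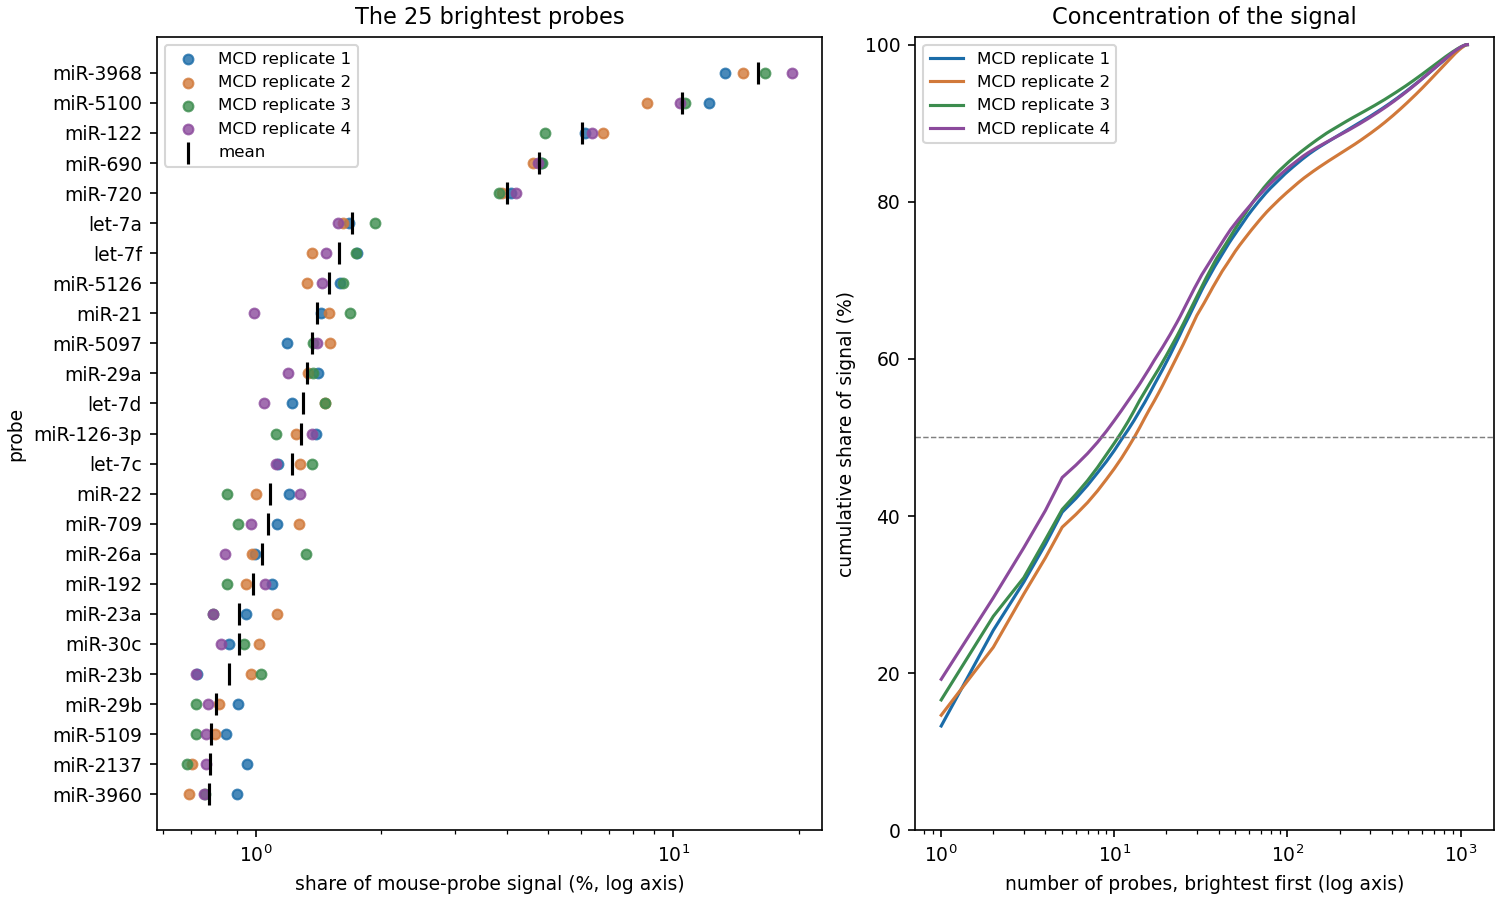
Left, the share of the summed mouse-probe signal (%, log axis) of the 25 brightest probes, with 1 point per MCD liver and a bar at the mean; right, the cumulative share (%) against the number of probes, brightest first (log axis). The first 5 probes stand apart from the rest in all 4 livers, and between 9 and 14 probes reach the dashed line at 50%.

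The first 5 places went to the same probes in the same order in all 4 livers: miR-3968, miR-5100, miR-122, miR-690 and miR-720. The miR-3968 probe had a net signal of 42668, 38150, 58496 and 51869 in replicates 1 to 4, a share of 15.9% ± 2.58. The miR-5100 probe had 39137, 22527, 37517 and 27990, a share of 10.5% ± 1.45. Replicate 2, the array with the lowest summed signal, had the lowest net signal for both probes, whereas the share of miR-3968 was lowest in replicate 1, at 13.3%.

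miR-122 stood in the third place with 19708, 17643, 17321 and 17183, a share of 6.05% ± 0.80. By the scaled log2 signal it was the most even of the 5 probes, with an SD of 0.09 over the livers. By share it was not, with a coefficient of variation of 13.2%, against 2.22% for miR-690 and 4.25% for miR-720, and its share was lowest in replicate 3 at 4.91%. miR-690 followed with 15448, 12010, 17108 and 12791 (4.75% ± 0.11), and miR-720, which is known to be a fragment of a transfer RNA and not a miRNA, with 13119, 10141, 13481 and 11317 (4% ± 0.17). The next probe, let-7a, had 1.70% ± 0.16, so that the step between the fifth and the sixth place was 2.30 ± 0.30 percentage points.

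Beyond the fifth place the order was not stable. Of the 24 neighbouring places among the 25 brightest probes, 6 were in the same order in all 4 livers, and 5 of those 6 were the steps down to let-7a. The places from 6 to 25 held let-7a, let-7f, miR-5126, miR-21, miR-5097, miR-29a, let-7d, miR-126-3p, let-7c, miR-22, miR-709, miR-26a, miR-192, miR-23a, miR-30c, miR-23b, miR-29b, miR-5109, miR-2137 and miR-3960, with mean shares between 1.70% and 0.77%. Neighbours in this stretch differed by 0.14 percentage points or less.

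miR-21, known to be raised in many fibrotic tissues, had 4599, 3896, 5941 and 2671 in replicates 1 to 4 (1.40% ± 0.29). It held the ninth place by its mean, but replicate 4 was below the other 3 livers and ranked it 16th. miR-126-3p, a miRNA of endothelial cells, had 4474, 3249, 3940 and 3680 (1.28% ± 0.13), with less spread than miR-21. miR-192, enriched in liver and gut epithelium, had 3508, 2467, 3016 and 2835 (0.99% ± 0.11). miR-26a had 3200, 2551, 4651 and 2285 (1.04% ± 0.20), highest in replicate 3 like miR-21.

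The probes fell into 490 families by the number in their names, with 15 groups of related numbers joined from general knowledge, and 114 families held at least 1 bright probe. The 10 brightest families carried 57.9% ± 1.64 of the signal (56.1% to 59.7% in single livers). By this grouping the let-7/miR-98 family moved up to the third place, after miR-3968 and miR-5100 and before miR-122. Its 20 probes had 7.67% ± 0.74, with 7.51%, 7.83%, 8.56% and 6.77% in replicates 1 to 4. With the blank spots subtracted it exceeded the miR-122 family (6.29% ± 0.80) in all 4 livers. In replicate 4 these families were closest, at 6.77% for let-7/miR-98 and 6.61% for miR-122. The let-7/miR-98 sum includes * probes that were not bright. The 10 probes with the let-7 seed, 9 of them bright, had 6.64% in replicate 4. The order in that liver thus depends on dim probes and their background and was not settled.

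**Figure D2:**
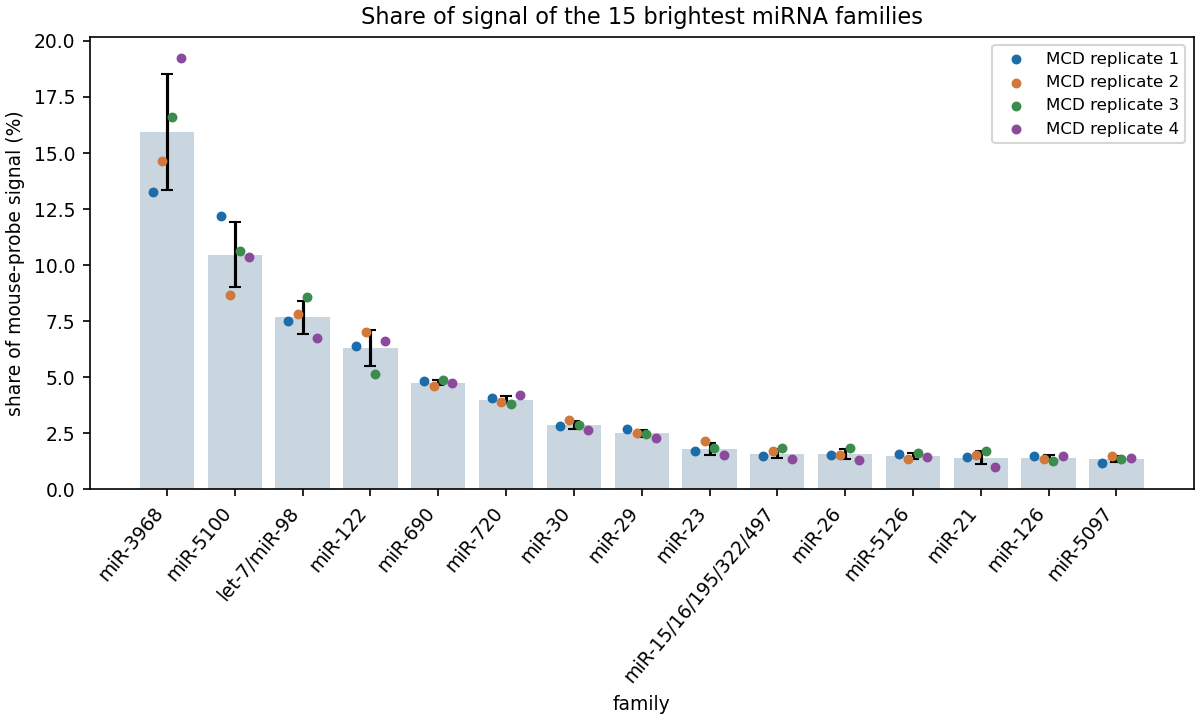
Share of the summed mouse-probe signal (%) of the 15 brightest families; bars are means of 4 MCD livers, error bars the SD, and points the single livers. The 4 families that lead are miR-3968, miR-5100, let-7/miR-98 (7.67%) and miR-122 (6.29%), and from miR-30 on every mean lies under 3%.

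Within the let-7 family, whose members are known to restrain growth and Lin28, 9 of the 20 probes were bright, against 15.4% of all mouse probes. All 9 were guide arms. let-7a had 5360, 4222, 6791 and 4251, and let-7f had 5620, 3545, 6136 and 3976. Their order changed between livers, since let-7f was higher in replicate 1 and let-7a in the other 3. let-7d averaged 3934 ± 956, let-7c 3697 ± 786, let-7b 2316 ± 659 and let-7g 1407 ± 180 (SD, n = 4). let-7i at 754 ± 226 and let-7e at 598 ± 189 were lower, and miR-98 was just above the negative controls at 102 ± 20.9. let-7e differed from let-7a by the single change U9G. How well the probes tell such close members apart was not tested.

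The miR-30 family (2.86% ± 0.17) had 11 probes, 7 of them bright, against 15.4% of all mouse probes. It was led by miR-30c with 2777, 2648, 3306 and 2228. miR-30a averaged 2177, miR-30d 1570 and miR-30e 566. miR-30b, named after its values were seen, had 1432, 1088, 572 and 1027 and was thus lowest in replicate 3, the liver in which the 4 other members were highest. The miR-29 family (2.49% ± 0.17) consisted in signal of miR-29a (4014 ± 794), miR-29b (2412 ± 390) and miR-29c (903), and its 4 other probes, all * arms, were not bright.

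The miR-23 family (1.80% ± 0.26) was shared almost equally by miR-23a with 3049, 2934, 2786 and 2134 and miR-23b with 2321, 2544, 3621 and 1943. miR-23b was the higher in replicate 3 only. The family of miR-15, miR-16, miR-195, miR-322 and miR-497, known to restrain the cell cycle, had 1.59% ± 0.21, of which miR-16 (2240, 2031, 2787 and 1830) held 46.3%. At the other end, the large family of miR-297, miR-466, miR-467 and miR-669 had 72 probes, of which 1 was bright, against 15.4% of all mouse probes.

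Neighbouring mature miRNAs were grouped where their sequences were known and the starts lay within 10 kb on 1 strand. There were 100 such groups, of which 36 held at least 1 bright probe and 16 only bright probes. Many of the groups were just the 5p and 3p arms of 1 hairpin, such as miR-142-5p and miR-142-3p. The counts are therefore not counts of clusters of hairpins. In the chromosome 13 cluster let-7a was 1.31 times let-7d in mean net signal, in the chromosome 19 cluster miR-192 was 1.35 times miR-194, and in the chromosome 6 cluster miR-29a was 1.66 times miR-29b. In the chromosome X cluster let-7f was 47.3 times miR-98, and in the chromosome 11 cluster miR-451 was at least 15.8 times miR-144, which was above the negative control limit on 0 arrays and was raised to that limit for this bound. Several of these miRNAs, such as let-7f and miR-29b, have copies at another place, so their signal cannot be assigned to 1 cluster.

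Guide and * arms were compared in 273 hairpins that had a probe under both names, and 89 of them had a bright arm and a net signal above 0 for both arms in all livers. The guide was brighter in all 4 livers in 73 of the 89 hairpins (82.0%), the * arm in 15, and 1, miR-411, was mixed. Without the filter on brightness, over the 267 hairpins with both arms above 0, the guide was brighter in all 4 livers in 39.7% and the * arm in 30 hairpins. Subtracting the negative controls left 9 hairpins with a brighter guide, and 48 were left with the deposited values. Hairpins with an arm at or below 0, or left empty, have no ratio in these settings and were dropped. Both counts are therefore out of fewer than 89 hairpins. Over all 89 hairpins, those with a brighter * arm included, the median ratio was 2.94 on the log2 scale, or 7.67-fold. In 59 of the 73 hairpins with a brighter guide the * arm exceeded the negative control limit on no array, so their ratios are bounds. With the dim arm raised to that limit, which was 65.2 to 89.1 net, the median over the 73 hairpins was at least 5.02-fold. All * probes, 30.02% of the mouse probes, together held 7.10% ± 0.53 of the signal, and 24 of them were bright. This share was 12.4% with normexp background correction and 3.43% when only bright probes were summed.

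**Figure D3:**
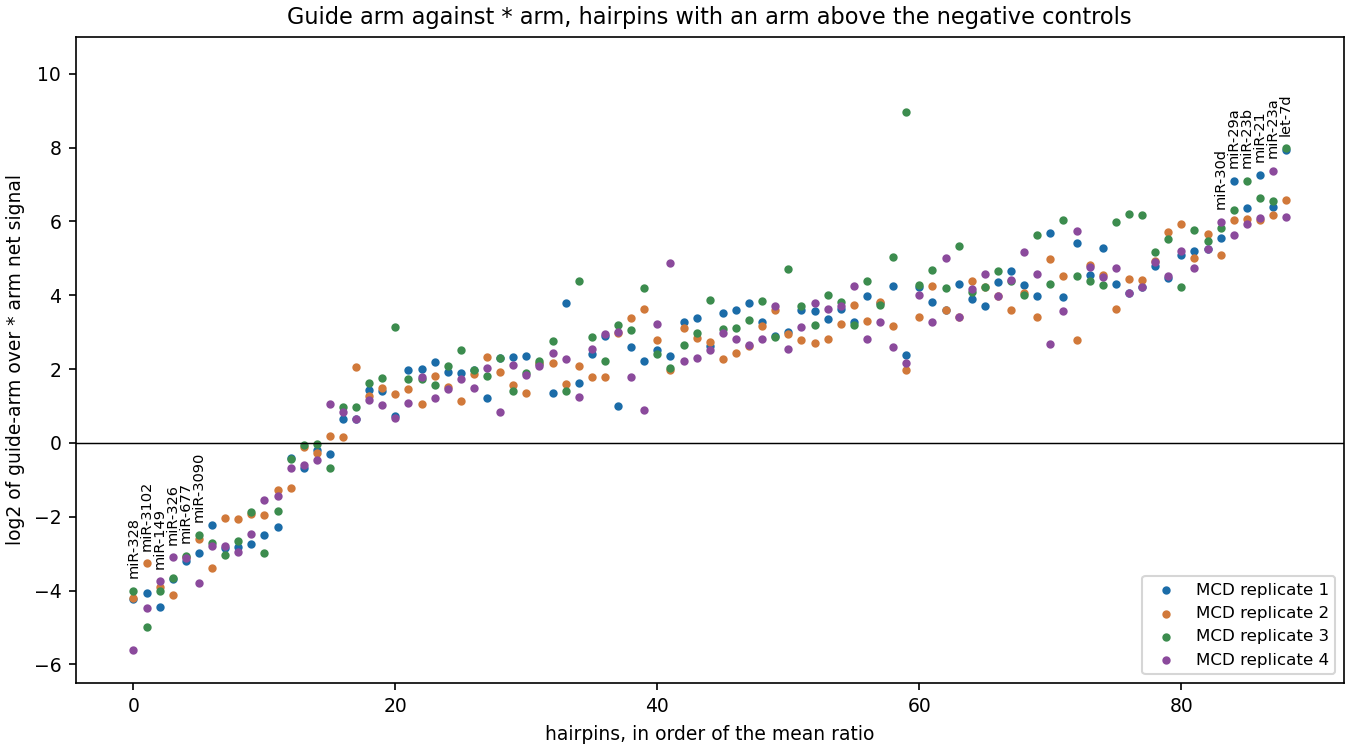
Log2 ratio of the guide-arm over the * arm net signal for the 89 hairpins with a bright arm, in order of the mean ratio, with 1 point per MCD liver; the 6 largest and the 6 smallest are named, and ratios over a dim arm are bounds. In 73 hairpins all points lie above 0 and in 15 all lie below it.

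By the ratio of the net signals as measured, the first 6 places went to let-7d, miR-23a, miR-21, miR-23b, miR-29a and miR-30d, but these ratios are over * arms below the negative control limit and their order is not settled. By the bounds miR-21, miR-29a and let-7d came first, and miR-192 (at least 37.8-fold) came before miR-23a, miR-23b and miR-30d. let-7d had 3926, 3817, 5162 and 2829, against 16.1, 39.8, 20.4 and 40.8 for let-7d*, at least 51.5-fold. miR-21 had 4599, 3896, 5941 and 2671, against 30.1, 59.8, 59.4 and 38.8 for miR-21*, at least 55.0-fold. In all 4 livers these * probes lay below the negative control limit. The bound was at least 52.9-fold for miR-29a, 36.1-fold for miR-23a, 33.98-fold for miR-23b and 20.5-fold for miR-30d.

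In 6 hairpins both arms were bright, which gives a ratio of measured signals. miR-122 had 17964 ± 1179, against 735 ± 120 for miR-122*, a 24.7-fold ratio. The ratio was 17.5-fold for miR-22, 12.6-fold for miR-30a and 2.57-fold for miR-30e. In miR-140 the * arm was the brighter in every liver, with 199.1, 184.8, 208.4 and 159.8 for the guide against 226.1, 221.8, 211.4 and 219.8 for miR-140*, a 1.17-fold difference, and in miR-3072 the * arm was 1.29-fold brighter. The * arm was thus close to its guide in these last hairpins.

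Among the 15 hairpins with a brighter * arm, the measured ratio was furthest from 1 in miR-328, miR-3102, miR-149, miR-326, miR-677 and miR-3090. Their guides were not bright, and by the bounds miR-149 came first and miR-92b (at least 5.63-fold), miR-3068 (4.42-fold), miR-3077 (4.23-fold) and miR-211 (3.62-fold) came before miR-677. The sequences of both arms of miR-149 are shown because its * arm had the highest signal of these 6 hairpins. The seed is in capitals:
miR-149: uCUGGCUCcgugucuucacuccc
miR-149*: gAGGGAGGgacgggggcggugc
Both lie within Gpc1, at chr1:92850381-92850403 and chr1:92850421-92850442 on the plus strand. The guide had 76.1, 71.8, 82.4 and 82.8, against 1644, 1073, 1320 and 1110 for miR-149*, so that the * arm was at least 15.6-fold brighter. The G and C content was 60.9% for miR-149 and 81.8% for miR-149*.

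miR-328 had 66.1, 45.8, 75.4 and 20.8, against 1236, 850, 1213 and 1014 for miR-328*, which was at least 14.3-fold brighter. miR-3102 averaged 56.3, against 981 for miR-3102*, at least 12.6-fold. The bound was 7.60-fold for miR-326*, 4.99-fold for miR-3090* and 2.94-fold for miR-677*. In all 6 of these hairpins the * arm was above the negative controls on every array.

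Both arms had a known sequence in 6 of the 15 hairpins with a brighter * arm, and there the * arm was the richer in G and C in 5, with a median difference of 8.71 percentage points. In the 57 such hairpins with a brighter guide the * arm was the richer in 34 and the guide in 18, with a median difference of 2.37 points. Whether base composition has a part in the arm ratio was not tested. Of the 116 hairpins named by 5p and 3p instead, 14 had a bright arm, of which the 5p arm was brighter in all livers in 6 and the 3p arm in 8. Among them miR-126-3p (3836 ± 512) was 10.7-fold above miR-126-5p (362.5 ± 74.7), and both were bright.

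The mature sequences gave other shared features, for the 589 of 1096 probes (53.7%) that matched 1 RefSeq miRNA. These held 72.8% of the signal, and 115 of the 169 bright probes were among them. Of the 25 brightest probes, miR-122, miR-720, miR-5097, miR-709, miR-23b, miR-5109 and miR-3960 had no such match. The first base was U in 47.0% of the 115 bright probes and in 33.97% of the 474 other matched probes. A G and C content of 70% or more was found in 9 of the 115 bright probes (7.83%), against 16 of the 474 others (3.38%). The median was lower in bright probes (47.6% against 50%). These counts leave out the probes without a match and are a description only. Among the bright ones with a high content were miR-5126 (100%), miR-2861 (94.7%), miR-2137 (85.7%) and miR-762 (81.8%).

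The spread among livers was measured as the SD of the log2 net signal after subtracting each array's median over the 602 detected probes. Each miRNA was spotted 1 time per array, so a difference between livers cannot be told apart from a difference between arrays. Within an array, the spots of a spike-in control had an SD of log2 signal between 0.03 (replicate 4) and 0.41 (replicate 1). Over the 169 bright probes the median SD was 0.27, with quartiles of 0.19 and 0.38. It was 0.22 for the 25 brightest, 0.30 for places 26 to 100 and 0.27 for the other bright probes, and 0.34 for the probes that were detected but not bright. The range over the 4 livers exceeded 1 on the log2 scale in 26 bright probes. Replicate 3 held the highest value of 91 bright probes. Replicate 2 held the lowest of 76 and replicate 4 the lowest of 68, so the livers did not scatter evenly even after this scaling. The array of replicate 3 also had the highest summed signal, and the part of that in the spread was not tested.

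**Figure D4:**
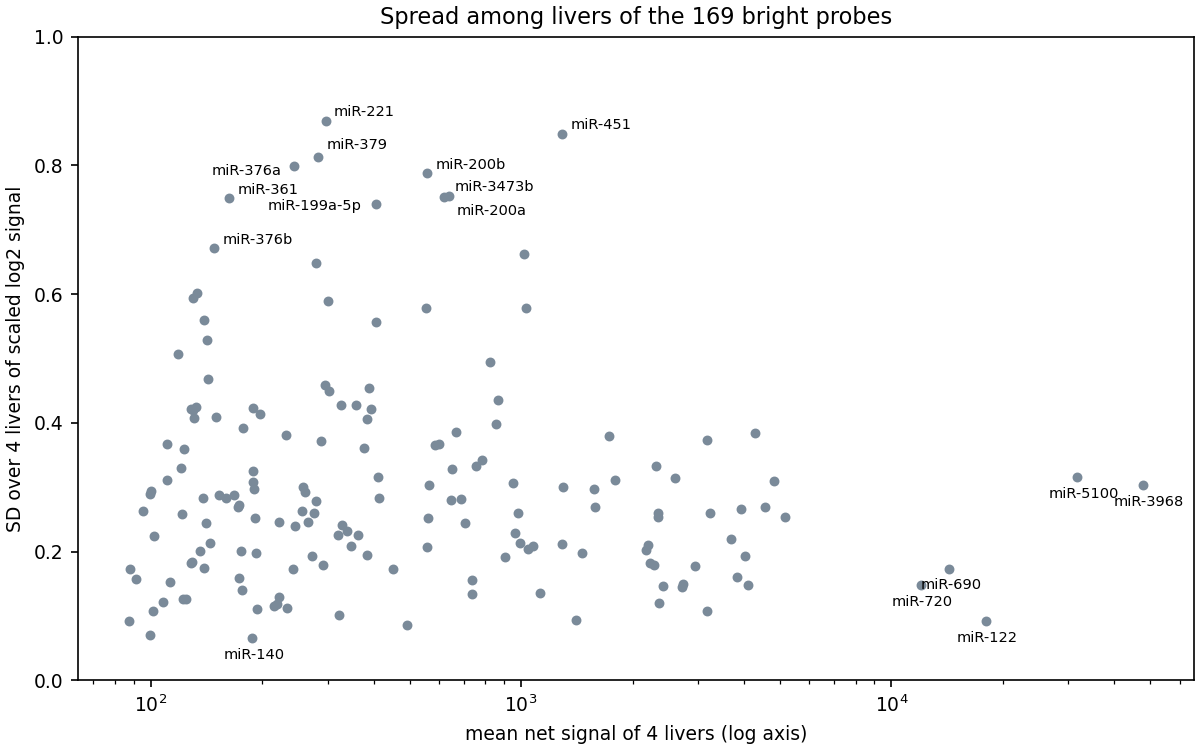
SD over the 4 MCD livers of the scaled log2 signal against the mean net signal (log axis) of the 169 bright probes, 1 point per probe. The 10 probes with the largest SD are named and lie between 0.67 and 0.87, while miR-122 and miR-140 lie at 0.09 and 0.07.

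The most variable bright probes were miR-221, miR-451, miR-379, miR-376a, miR-200b, miR-200a, miR-3473b, miR-361, miR-199a-5p and miR-376b. In 9 of these 10 the scaled value was highest in replicate 3, as it was in 91 of the 169 bright probes. In 6 of the 10 it was lowest in replicate 4, as it was in 68 of the 169. miR-221, known to repress the cell cycle inhibitor p27, had 116, 343, 425 and 302, with replicate 1 far below the rest (SD 0.87). miR-451, a miRNA of red blood cells, had 525, 1388, 1615 and 1633 and was likewise low in replicate 1 alone (SD 0.85).

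miR-200a and miR-200b, which keep epithelial cells in their state by repressing Zeb factors, varied together. miR-200b had 378, 562, 1034 and 259, and miR-200a had 549, 520, 1189 and 289. Both were highest in replicate 3 and lowest in replicate 4. miR-379 had 261, 286, 478 and 105.8, and miR-376a had 272, 219, 395 and 90.8, the same extremes as the miR-200 members. miR-199a-5p, abundant in fibroblasts and stellate cells, had 247, 392, 755 and 232, also highest in replicate 3.

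The most even bright probes were miR-140, miR-128-2*, miR-17, miR-122, miR-92a-2*, let-7g, miR-101b, miR-709, miR-466i-5p and miR-185, with SDs between 0.07 and 0.11. miR-140 had 199.1, 184.8, 208.4 and 159.8, miR-17, a member of a cluster that promotes proliferation, had 536, 452, 547 and 427, and let-7g had 1527, 1294, 1590 and 1216. For each of these 3 probes the highest liver was within 1.31-fold of the lowest before any scaling. Among the even probes, miR-122 and miR-709 were among the 25 brightest while miR-128-2* and miR-92a-2* averaged 99.5 and 87.0. The latter lay close to the negative control limit of 65.2 to 89.1 net. The part of the background in their evenness was not tested.

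The labelled tissue was compared with lists of miRNAs known to mark cell types, written from general knowledge. The lists were chosen with earlier results of these data known, so this is not an independent check. In whole tissue, fewer cells of a type and less miRNA per cell cannot be told apart. Of all mouse probes 15.4% were bright, the share to set beside the count of bright probes in each list. The hepatocyte list had 8.42% ± 0.91 of the signal with 6 of its 9 probes bright, and miR-122 alone held 6.05%. miR-194, which is enriched in liver, had 1935, 2064, 2682 and 2110, miR-148a averaged 704 ± 135 and miR-101b 321.5 ± 33.3. miR-192*, miR-101a and miR-802 were not bright on all arrays. The muscle, brain and pancreas lists had 0.05%, 0.04% and 0.04%, with 0 bright probes among 4, 3 and 4, and their level was that of the negative controls. Lists this short can hold 0 bright probes at the share of all mouse probes, so these counts alone show little.

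**Figure D5:**
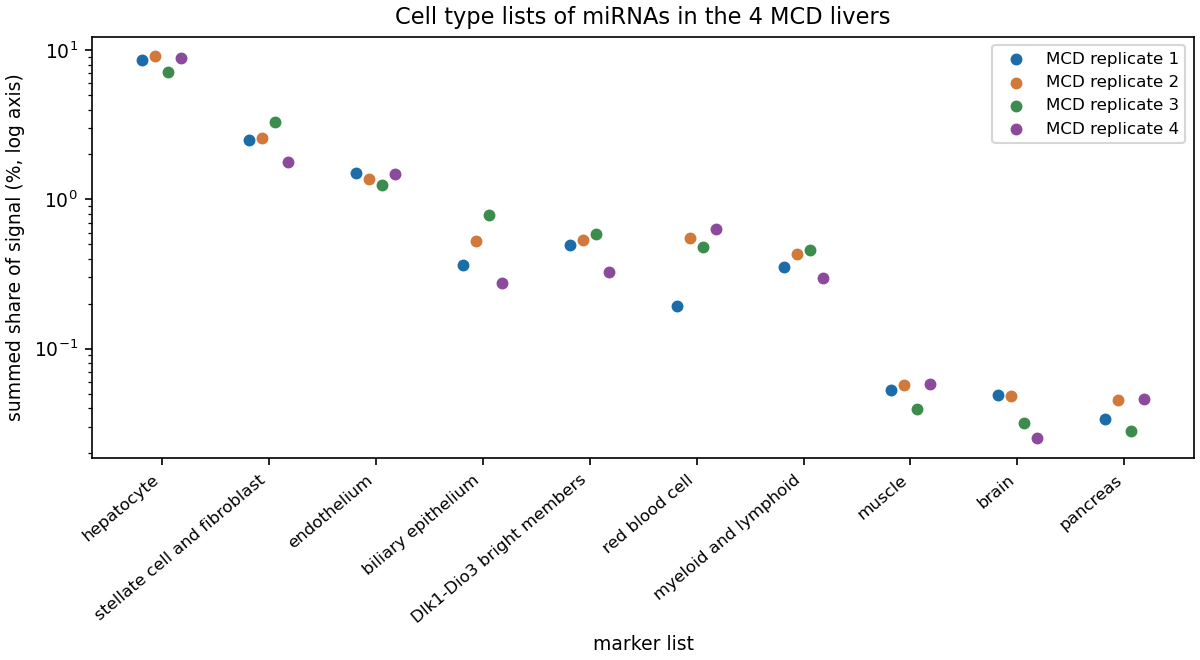
Summed share of the mouse-probe signal (%, log axis) of each list of miRNAs, 1 point per MCD liver. The hepatocyte list leads in every liver, replicate 3 is highest for the stellate cell, biliary and myeloid lists, and the muscle, brain and pancreas lists stay under 0.06%.

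Among the lists of other liver cells, the stellate cell and fibroblast list had 2.51%, 2.60%, 3.31% and 1.79%, with 6 of 7 probes bright, and miR-21 alone held 1.40%. miR-145 had 1019, 587, 1223 and 636, and miR-143 had 949, 698, 1221 and 559, both miRNAs of smooth muscle and other contractile cells. The probe that reads both miR-199a-3p and miR-199b had 873, 814, 1848 and 537. All 7 members of this list had their highest net signal in replicate 3, as did 56.8% of the 169 bright probes. miR-214 was above the negative controls on 3 of the 4 arrays.

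The biliary epithelium list, the miR-200 family, had 0.366%, 0.529%, 0.789% and 0.275% with 3 of 5 probes bright. Its dimmer members miR-141 (66.1, 80.8, 178 and 56.8) and miR-200c (58.1, 75.8, 154.4 and 58.8) were highest in replicate 3 as well. The myeloid and lymphoid list had 0.38% ± 0.07 with 4 of 7 probes bright. Its brightest member was miR-223, a miRNA of neutrophils and macrophages, with 314, 433.8, 639 and 235, followed by miR-146a, a brake on inflammatory signalling, with 254, 236, 360 and 194.8. The endothelium list had 1.40% ± 0.12, nearly all of it miR-126-3p, and its share was lowest in replicate 3, the array with the highest summed signal. By net signal miR-126-3p was lowest in replicate 2 (3249, against 3940 in replicate 3), and miR-126-5p was highest in replicate 3 (471).

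The red blood cell list had 0.194%, 0.554%, 0.483% and 0.635%, with miR-451 as its only bright probe, since miR-144 averaged 34.05 ± 8.88 and miR-486 45.8 ± 10.8. The other 2 members were above the negative control limit on 0 arrays, so the order of livers in this list is that of the share of miR-451. The imprinted Dlk1-Dio3 cluster, known to be expressed mainly before birth, had 93 probes and 1.87% ± 0.29 of the signal. The 6 bright ones among them (6.45% of the 93, against 15.4% of all mouse probes) were miR-411, miR-379, miR-376a, miR-376b, miR-494 and miR-127. They summed to 0.494%, 0.535%, 0.582% and 0.324%, lowest in replicate 4.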

How the data were processed

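The 4 untreated MCD arrays were 1-colour mouse miRNA Oligo chips (v. 17, Toray), and per the methods the authors extracted total RNA with a miRNeasy kit, labelled it with a miRCURY kit and read the spots with the 3D-Gene software. The deposited intensity values are linear median pixel brightnesses, for a spot and for the area around it, neither subtracted nor normalized. The deposited value table also holds intensity: on each array it is a fixed multiple (0.934 to 1.05 times over the bright probes) of the net signal, which brings the listed mouse probes to a median of 45, with 88 to 163 mouse probes at a net signal of 19.8 or less left empty. It was used as an alternative only.

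The members, lists, families and the rule for naming were chosen with earlier results of these data known. The rule named the 25 brightest probes, the 10 brightest families and their leading members, the 6 largest and 6 smallest arm ratios and the pairs of bright guides, the 10 largest and 10 smallest SDs, and up to 4 members of each list; others were chosen after their values were seen. The lists were hepatocyte, stellate cell and fibroblast, endothelium, biliary epithelium, myeloid and lymphoid, red blood cell, muscle, brain, pancreas and Dlk1-Dio3; no probe was named miR-1. Values below the blank mean counted as 0 in sums. The number of arrays limits the precision. RefSeq matched 589 probes to 1 mature sequence, 203 to a hairpin whose arm was not settled and 304 to none, and sequences and positions are RefSeq's (GRCm38.p6). The functions were tested on simulated data. Python 3.11.15, pandas 2.3.3, numpy 2.4.6, scipy 1.17.1, R 4.3.3 and limma 3.58.1 were used. Alternatives changed the background, the set of probes summed, the families, the scaling and the arrays. The metformin arrays were not used.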

Additional observations from a re-analysis of the deposited data

Results flagged for a closer look

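Of 85 values named in the text and checked for a liver far from the other 3 (Dixon's 95% limit on the gap over the range), 2 passed, and chance passes about 1 in 20. The scaled log2 signal of miR-221 was 0.93 in replicate 1, against 2.54 to 2.82 in the other livers. The log2 ratio of miR-328 over miR-328* was -5.60 in replicate 4, against -4.23 to -4.01 in the other livers, where miR-328 itself lay below the negative control limit on 3 of the 4 arrays. Over the 169 bright probes 10 (5.92%) passed the same limit.

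Signal was also found in probes outside the mouse set. Of 39 probes for viral miRNAs 2 exceeded the negative control limit on all 4 arrays: mcmv-miR-M23-1-5p with 801, 615, 791 and 585 (mean 698 ± 114) and mghv-miR-M1-9 with 131, 108, 122.4 and 81.8 (mean 111 ± 21.6). No liver stood apart for these probes, and what they bound was not tested.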

How the results depend on the processing

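Among the 506 single values recomputed (94 arm ratios, and shares of named probes and families), 339 stayed within 1 SD of the livers and 167 moved by more. The 94 arm ratios, recomputed for the 6 largest and 6 smallest only, kept their sign (0 changed). Most settings could not change it. Another constant per array, a fixed multiple or 1 liver fewer keeps the order of the arms, and pairs with an arm below 0 drop out. Only the local background and normexp could have reversed a ratio. The choice of background moved the summary values, since it sets what the many dim probes add to the sum. With local background subtracted, normexp with offset 50, or the mean of the negative control spots subtracted, the 10 brightest probes held 39.4%, 37.7% and 55.8%, and 50% of the signal took 22.8, 26 and 7 probes. In the same order of settings miR-122 held 4.88%, 4.66% and 6.95%, let-7 6.52%, 6.31% and 8.50%, miR-30 2.48%, 2.41% and 3.12%, the 10 brightest families 48.1%, 46.4% and 65.6%, and the * probes 11.6%, 12.4% and 3.78%. Hairpins with a brighter guide numbered 9 with the negative controls subtracted, where a pair with an arm below 0 has no ratio, and 48 with the deposited table, which leaves dim probes empty. The median SD was 0.31 with the negative controls and 0.23 with normexp.

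Summing only detected probes gave 51.5% for the 10 brightest probes, 9.25 probes for 50%, 60.9% for the 10 brightest families and 5.63% for * probes. Summing only bright probes gave 55.9%, 6.75 probes, 66.0% and 3.43%, with 6.96% for miR-122, 8.62% for let-7 and 3.23% for miR-30. Without miR-3968, miR-5100, miR-690 and miR-720, a choice made after seeing the data, miR-122 held the place 1, with 9.33%, let-7 11.8%, miR-30 4.41%, the 10 brightest probes 28.9%, the 10 brightest families 44.1% and * probes 10.9%, and 50% took 26.2 probes. With families by RefSeq seed miR-30 had 1.83%, since only some members had a settled sequence, and the 10 brightest families 56.0%.

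The median SD was 0.33 without scaling, 0.22 as shares, 0.21 after quantile normalization and 0.32 over detected probes. Without 1 replicate it was 0.24 to 0.29. Detected probes made up 32.03% of the mouse probes with 3 SD of the blank spots, 15.4% with the negative controls, 100% with the local background, and 60.04% to 65.3% on 3 arrays. Base content was settled for 774 of 1096 probes (70.6%), under the 80% needed. The planned check of the signal of probes with 70% or more G and C was therefore not run. Neither were the sums without them, and the counts of such probes given above cover matched probes only. No paired analysis was possible because only 1 group, the untreated MCD arrays, was described. Both arms of a hairpin were compared within each liver. Signal over background limits the arm ratios and the order of the 927 probes that were not bright.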
